A study of Homo sapiens with 3 samples.

Results

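The genes of platelet-derived growth factor (PDGF) signalling were examined in 3 populations derived from the human embryonic stem cell line H1, an established line. They are the ligand genes PDGFA, PDGFB, PDGFC and PDGFD and the receptor genes PDGFRA and PDGFRB. These 6 genes were chosen by name, as the members of the family, and all 6 were found among the 18345 genes of each deposited table. By the labels, the culture was 2 days with activin A (40 ng/ml) and BMP4 (50 ng/ml) and 3 days with VEGF (40 ng/ml) and bFGF (50 ng/ml), and the cells are labelled as day 4 of blood differentiation. These stages add up to more days than the day label gives, so the time in VEGF and bFGF before sorting is uncertain. The cells were sorted as CD31+CD34+ cells, called HEPs in the labels, and divided by surface CD105 (endoglin) into CD105neg, CD105low and CD105high. All 3 populations carry the H1 genotype, had the same culture and differ in their labels by the CD105 gate alone. Each had 1 library, so no difference below has a replicate check and no p-value is given.

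PDGF ligands are dimers that bind receptor tyrosine kinases on the cell surface. PDGF-AA and PDGF-CC act mainly through the alpha receptor, PDGF-DD mainly through the beta receptor, and PDGF-BB binds both. In growing vessels, endothelial cells secrete PDGF-B, and pericytes and smooth muscle cells, which carry the beta receptor, follow it and coat the vessel wall. The alpha receptor is known from early mesoderm and from connective tissue precursors.

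Values are given as FPKM, fragments per kilobase of transcript and per 1000000 mapped fragments, so that levels of different genes can be set side by side. The unit is named neither in the labels nor in the tables. The depth of the libraries is unknown, so no counting error is given. The tables summed to between 265618 and 289229 FPKM, and between 10917 and 11062 genes per library reached 1 FPKM. ENG, which encodes CD105, stood at 2.12, 8.56 and 13.8 FPKM in CD105neg, CD105low and CD105high, PECAM1, which encodes CD31, at 29.9, 41.9 and 50.1 FPKM, and CD34 at 21.0, 39.2 and 43.2 FPKM. In the CD105neg table the column of values is headed as if it were CD105 positive, but its sample is labelled negative and its ENG value was the lowest of the 3. A gene was counted as measured when it reached 1 FPKM in any library, which held for 11343 genes and for all 6 PDGF genes. A gene was called higher or lower when the value plus 1 differed at least 1.5-fold between a pair of libraries, and log2 fold changes refer to the value plus 1, which understates the change of low genes. In a bulk population, fewer cells that express a gene and less RNA per cell cannot be told apart.

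The upstream sequences of PDGFD and PDGFRB are shown because these genes ran in opposite directions across the gate and each has a single start in the promoter table. Both are RefSeq sequences on build GRCh38.p14, cover the 250 bases before the annotated start of the gene and are written 5′ to 3′ on the strand of the gene. Capitals mark the GC box (GGGCGG or its reverse complement CCGCCC) and the SMAD box (CAGAC or GTCTG), searched on both strands with no overlap between them in these sequences.
PDGFD, chr11:104164148-104164397, minus strand: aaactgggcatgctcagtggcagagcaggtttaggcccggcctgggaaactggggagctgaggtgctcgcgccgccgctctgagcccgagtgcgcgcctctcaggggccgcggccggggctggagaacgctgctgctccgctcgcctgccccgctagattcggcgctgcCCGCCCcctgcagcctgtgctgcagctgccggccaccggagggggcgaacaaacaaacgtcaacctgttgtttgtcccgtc
PDGFRB, chr5:150155846-150156095, minus strand: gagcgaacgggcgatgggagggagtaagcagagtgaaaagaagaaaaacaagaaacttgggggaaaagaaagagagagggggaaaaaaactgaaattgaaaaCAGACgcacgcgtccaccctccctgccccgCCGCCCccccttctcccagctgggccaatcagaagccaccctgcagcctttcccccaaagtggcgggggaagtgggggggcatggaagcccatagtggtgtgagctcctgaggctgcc
The PDGFD sequence holds 69.2% G and C, 23 CG pairs and 1 GC box. The PDGFRB sequence holds 58.4% G and C, 9 CG pairs, 1 GC box and 1 SMAD box. Over the 35116 windows of this length in the table, the median was 58% G and C with 11 CG pairs, 42.6% held a GC box and 38.0% a SMAD box. A TATA box (TATAAA or TTTATA) was in neither sequence and in 10.7% of all windows. A match is a description of the letters and not a binding site. PDGFA had 4 such windows and PDGFRA 2, one for each annotated start, which are not printed. Of the 6 genes, 4 matched this table, all but PDGFB and PDGFC.

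The ligand genes divided into a pair with higher values at higher CD105, PDGFB and PDGFD, and a pair with lower values, PDGFA and PDGFC. PDGFRB had lower values at higher CD105, against the direction of PDGFB and PDGFD, while PDGFRA stayed within a narrow range. Across the whole gate, between CD105neg and CD105high, 2 of the 6 genes were called higher, PDGFB and PDGFD, where 5.65% of measured genes were, and 2 were called lower, PDGFC and PDGFRB, where 6.88% were. The values of 2 genes were ordered upward from CD105neg over CD105low to CD105high, an order that 17.6% of measured genes showed. Those of 3 genes, PDGFA, PDGFC and PDGFRB, followed the opposite order, as did 36.4% of measured genes. The median measured gene had a log2 fold change of -0.09 between CD105high and CD105neg, and the median over the 6 PDGF genes, which ran in both directions, was -0.19.

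**Figure D1:**
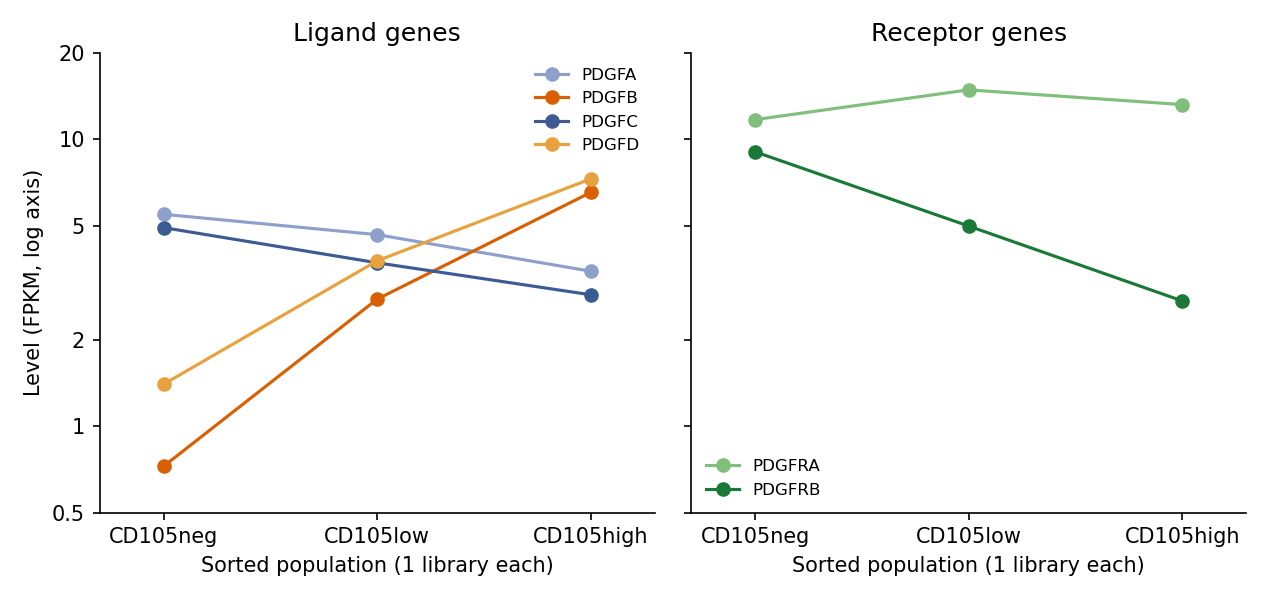
Level of each PDGF gene in FPKM (log axis) in the 3 sorted populations; each point is the value of 1 library, the lines join the libraries, and there are no error bars because each population had 1 library. PDGFB and PDGFD climb from 0.726 and 1.40 to 6.54 and 7.28 FPKM, PDGFRB runs down from 9.05 to 2.74 FPKM, and PDGFRA stays between 11.7 and 14.9 FPKM.

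PDGFB (ENSG00000100311.16) encodes the B chain, the ligand through which endothelium attracts pericytes. Its level was 0.726 FPKM in CD105neg, then 2.78 FPKM in CD105low and then 6.54 FPKM in CD105high. CD105neg was the lowest and CD105high the highest of the libraries, with CD105low in between. As a ratio of the values, CD105low was 3.82 times CD105neg, CD105high was 2.36 times CD105low, and CD105high was 9.01 times CD105neg. The log2 fold changes of the value plus 1 were 1.13, 0.997 and 2.13 for these comparisons in the same order. Of the 11343 measured genes, 24 had a higher log2 fold change between CD105high and CD105neg than PDGFB, 71 between CD105low and CD105neg, and 32 between CD105high and CD105low. PDGFB thus lay at the upper end of all measured genes at both steps of the gate. By level, 37.3% of all genes in the table lay below PDGFB in CD105neg, 48.8% in CD105low and 62.7% in CD105high.

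PDGFD (ENSG00000170962.12) encodes the D chain, which is secreted as an inactive form and released by proteolytic removal of its CUB domain. The CD105neg library had 1.40 FPKM, the CD105low library 3.77 FPKM and the CD105high library 7.28 FPKM. The order of the libraries was that of PDGFB, and in each of them PDGFD stood above PDGFB. CD105low was 2.69 times CD105neg and CD105high 1.93 times CD105low, which makes CD105high 5.20 times CD105neg. The log2 fold changes of the value plus 1 were 0.99, 0.80 and 1.79. Of the measured genes, 118, 56 and 47 had a higher log2 fold change than PDGFD in these comparisons. DDI1, a gene within the PDGFD locus on the other strand, shares 1.90% of the sampled PDGFD sequence and was listed at 0 in all 3 libraries.

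PDGFA (ENSG00000197461.13), the A chain gene, had 5.48, 4.65 and 3.47 FPKM in the CD105neg, CD105low and CD105high libraries. PDGFC (ENSG00000145431.10), whose product also carries a CUB domain and needs proteolytic release, stood at 4.92, 3.71 and 2.87 FPKM. Both were highest in CD105neg and lowest in CD105high, with small steps. Between CD105high and CD105neg, the log2 fold change was -0.54 for PDGFA, short of the 1.5-fold rule, and -0.61 for PDGFC, just past it. The call of PDGFC was lost once fold changes were centred on the median gene (-0.51). With a pseudocount of 0.1 in place of 1, PDGFA passed the rule as well (-0.64). The differences of PDGFA and PDGFC thus lay close to the threshold, and 999 and 690 measured genes had lower log2 fold changes than they did.

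The make-up of the ligand transcripts therefore differed between the ends of the gate. Summed over the 4 genes, ligand levels were 12.5 FPKM for CD105neg, 14.9 FPKM for CD105low and 20.2 FPKM for CD105high. The sum of PDGFA and PDGFC was 10.4, 8.37 and 6.34 FPKM, and that of PDGFB and PDGFD was 2.13, 6.55 and 13.8 FPKM. PDGFB and PDGFD together made up 17.0% of the ligand sum in CD105neg, 43.9% in CD105low and 68.5% in CD105high. These shares are taken within a library and do not depend on how the libraries are scaled against each other. In CD105neg, the order of levels from high to low was PDGFA, PDGFC, PDGFD and PDGFB, and in CD105high it was PDGFD, PDGFB, PDGFA and PDGFC. In CD105low, PDGFD (3.77 FPKM) and PDGFC (3.71 FPKM) were almost level, and without replicates no neighbours in these orders can be said to differ beyond their spread.

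**Figure D2:**
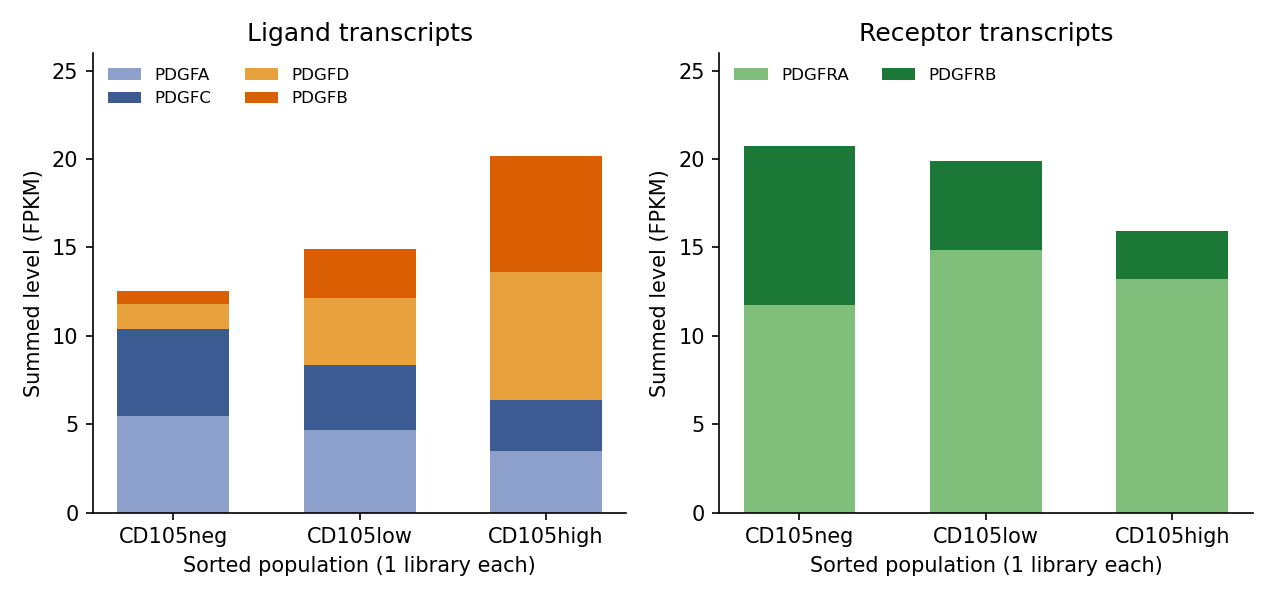
Summed level in FPKM of the 4 ligand genes (left) and the 2 receptor genes (right) in each sorted population, stacked by gene; each bar is 1 library, so there are no error bars. PDGFB and PDGFD take 17.0% of the ligand bar in CD105neg and 68.5% in CD105high, and PDGFRB takes 43.6% of the receptor bar in CD105neg and 17.1% in CD105high.

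PDGFRB (ENSG00000113721.13), the gene of the beta receptor, had 9.05 FPKM in the CD105neg library, 4.99 FPKM in CD105low and 2.74 FPKM in CD105high. CD105neg was the highest and CD105high the lowest library. The ratio was alike at both steps, with CD105neg 1.81 times CD105low and CD105low 1.82 times CD105high. Across the whole gate, CD105neg was 3.31 times CD105high. The log2 fold change was -1.43 between CD105high and CD105neg, and 37 of the 11343 measured genes had a lower one. It was -0.75 between CD105low and CD105neg and -0.68 between CD105high and CD105low, with 117 and 156 genes lower. PDGFRB was the 1 PDGF gene called lower in either of these smaller steps, where 2.18% and 2.19% of measured genes were called lower. PDGFB and PDGFD were the 2 called higher in each, where 4.13% and 1.18% of measured genes were. In the step from CD105low to CD105high, PDGFRB was short of the rule after centring (-0.58). With a pseudocount of 5, no PDGF gene was called in either smaller step.

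PDGFRA (ENSG00000134853.11), the gene of the alpha receptor, had 11.7 FPKM in the CD105neg library, 14.9 FPKM in CD105low and 13.2 FPKM in CD105high. It was the highest of the 6 genes in every library, and the only one of the 6 whose values were not in the order of the gate. Its log2 fold changes were 0.32 between CD105low and CD105neg, -0.16 between CD105high and CD105low and 0.16 between CD105high and CD105neg, none of which reached 1.5-fold. With 1 library in each population, a difference of that size cannot be set against any spread. In the annotation, PDGFRA shares 17.5% of its sampled sequence with AC058822.1, an overlapping gene on the same strand. That gene was listed at 0 in all 3 libraries, so how reads were divided between the 2 genes is uncertain.

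The balance of the receptors followed from these values. PDGFRA was 1.29 times PDGFRB in CD105neg, 2.98 times in CD105low and 4.83 times in CD105high. PDGFRB made up 43.6%, 25.1% and 17.1% of the receptor sum, which was 20.8, 19.9 and 16.0 FPKM. The sum of PDGFB and PDGFD was 0.235 times the level of PDGFRB in CD105neg, 1.31 times in CD105low and 5.05 times in CD105high. PDGFB alone was 0.0802, 0.557 and 2.39 times PDGFRB, so that in CD105low the sum of both ligand genes, but neither gene alone, was above PDGFRB.

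**Figure D3:**
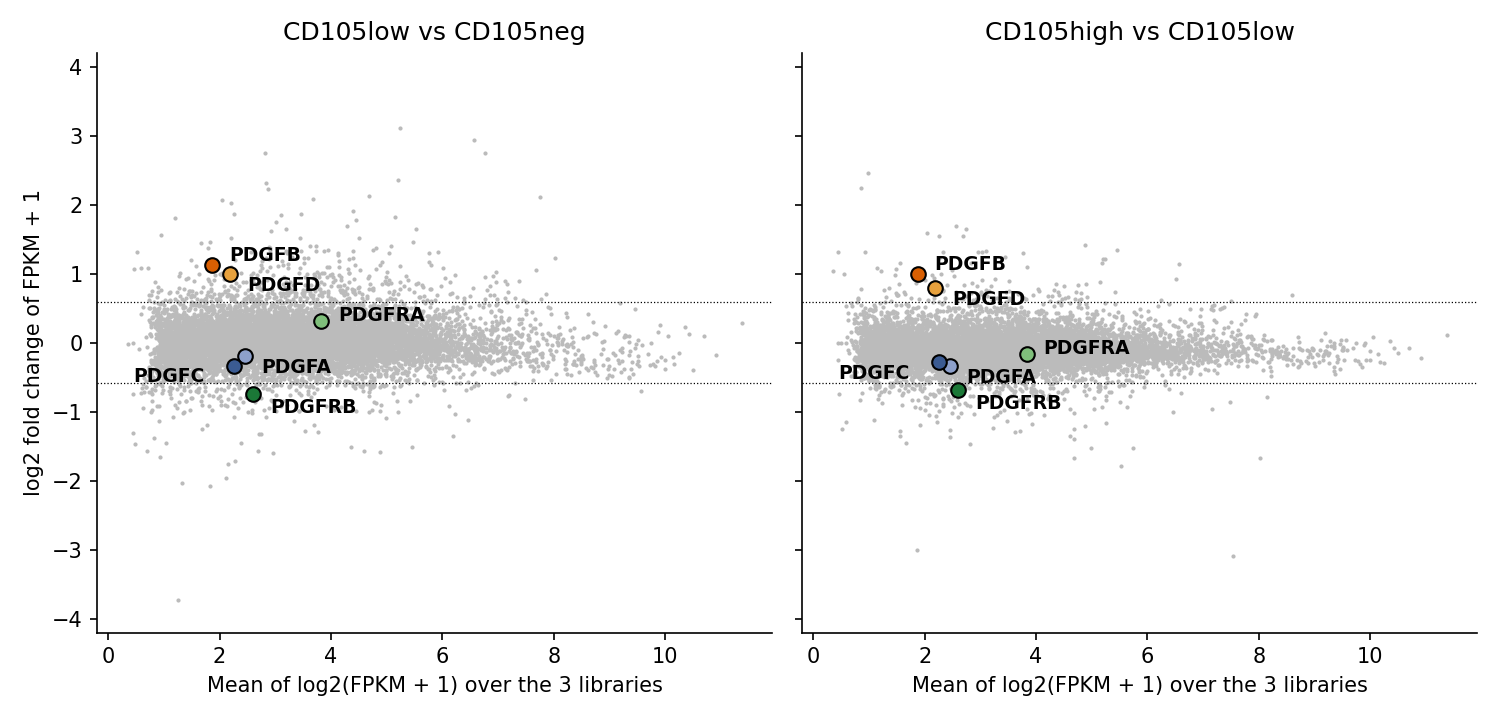
Log2 fold change of FPKM + 1 (vertical axis) against the mean of log2(FPKM + 1) over the 3 libraries (horizontal axis) for measured genes, for CD105low vs CD105neg (left) and CD105high vs CD105low (right); grey points are genes, coloured points the 6 PDGF genes, dotted lines mark 1.5-fold, and 1 gene in each panel lies outside the axes. PDGFB and PDGFD lie above the upper line and PDGFRB below the lower line in both panels; the panels share the CD105low library.

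The genes whose centred log2 values over the 3 libraries were closest to those of each PDGF gene were sought among the 8282 other genes that reached 5 FPKM in any library (8283 for PDGFC). Likeness was the Euclidean distance over these 3 libraries, where 0 is the same profile. Closest to PDGFB were A2M (distance 0.097), SELENOP (0.12) and MYO1E (0.16), and closest to PDGFD were MYOZ2 (0.031), DDX60 (0.080) and MYO1E (0.086). A2M, which encodes the protease inhibitor alpha-2-macroglobulin, a plasma protein that also binds PDGF, stood at 0.265, 1.91 and 5.08 FPKM. MYO1E, a myosin gene, was near both, at 2.65, 6.47 and 12.7 FPKM. Among the closest to PDGFRB were ANAPC13 (0.097) and ODC1 (0.10), with ODC1, the ornithine decarboxylase gene of polyamine synthesis, at 45.01, 24.3 and 16.4 FPKM. Closest to PDGFC were RPL6 (0.0074), LAMA1 (0.0080) and MCM7 (0.011), all within a dense field of genes with small steps. With 3 libraries many genes share such a profile by construction, so these names are a description.

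Cell types that could carry these transcripts were followed through marker lists. Between CD105high and CD105neg, 5.65% of all measured genes were called higher and 6.88% lower. Of 16 measured endothelial markers, 14 were called higher and none lower in CD105high than in CD105neg, with a median log2 fold change of 0.91. The gate genes PECAM1 and CD34 are among these 14. The summed level of the 16 was 1564, 2282 and 2446 FPKM in CD105neg, CD105low and CD105high. KDR and EGFL7 gave the largest parts of these sums. ROBO4 stood at 0.587, 1.94 and 4.32 FPKM and CD93 at 11.4, 42.9 and 79.6 FPKM, in the same order of libraries as PDGFB and PDGFD. CD93 and ROBO4 had the largest log2 fold changes of the list. EGFL7 (558, 630 and 528 FPKM) and CLDN5 (0.677, 1.31 and 1.05 FPKM), the 2 not called, were highest in CD105low. Platelets store PDGF. Of 6 measured megakaryocyte and platelet markers, 4 were called lower in CD105high than in CD105neg and none higher, with a median of -0.83. Of these 4, ITGB3 and RAB27B passed the 1 FPKM level through CD105neg alone. Over all 13 genes of the list the median was -0.24 (-1.60 for the 6 with a pseudocount of 0.1). The sums over the 13 genes were 24.3, 18.1 and 11.4 FPKM. ITGA2B, the integrin chain with the lowest log2 fold change of the list, stood at 7.84, 4.87 and 2.28 FPKM, while the platelet genes PPBP and TUBB1 were listed at 0 in CD105neg and CD105low and at 0.044 and 0.0036 FPKM in CD105high. The part of these cell types in the values of PDGFB and PDGFD was not tested.

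PDGFRB is a defining gene of pericytes and other mural cells. Of 14 measured mural and mesenchymal markers, 5 were called lower in CD105high than in CD105neg (COL1A1, COL3A1, CSPG4, DES and TAGLN), 1 was called higher (THY1) and 8 were neither, with a median of -0.24. Over all measured genes, 6.88% were called lower and 5.65% higher. CSPG4 passed the 1 FPKM level through CD105neg alone, and over all 19 markers with a value the median was -0.08. The sum over the 19 markers with a value was 567, 577 and 502 FPKM. COL1A1, the type I collagen chain, stood at 21.4, 14.6 and 8.57 FPKM, and CSPG4, the pericyte proteoglycan NG2, at 1.38, 0.753 and 0.468 FPKM. Not all markers of this list resembled PDGFRB. RGS5, a pericyte marker, was highest in CD105low (114, 124 and 111 FPKM), and NOTCH3, a mural Notch receptor gene, had nearly level values (14.1, 13.8 and 13.3 FPKM). MYH11, DCN and HIGD1B, of smooth muscle, fibroblasts and pericytes, were at or below 0.026 FPKM in every library. In the list of early and cardiac mesoderm markers, where PDGFRA is also known, 1 of 10 measured genes was called lower, MYL4, and none higher (median -0.41). Its sum over the 14 genes was 173, 208 and 191 FPKM, and APLNR, the apelin receptor gene, gave most of it (94.9, 130.01 and 128 FPKM). The order of these sums thus rests largely on APLNR. PDGFRA had a log2 fold change of 0.16 between CD105high and CD105neg. The list median was -0.41 over the 10 measured genes and -0.20 over all 14. Among pluripotency and epithelial markers, 1 of 9, CDH1, was called lower and none higher (median -0.35; sums of 138, 134 and 127 FPKM). The part of such cells in the PDGF receptor values was not tested.

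**Figure D4:**
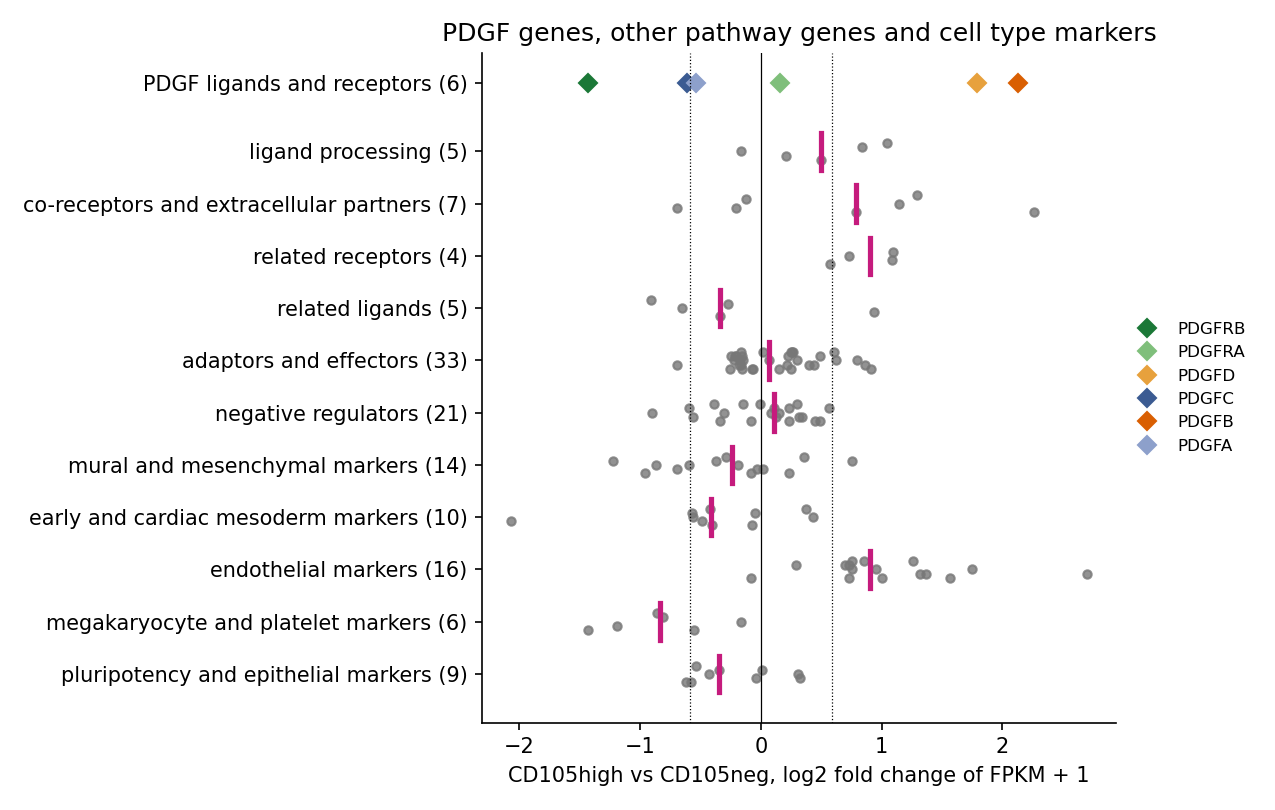
Log2 fold change of FPKM + 1 of CD105high vs CD105neg (horizontal axis) for the 6 PDGF genes (coloured diamonds) and for the measured genes of the lists other than the gate list (grey points). The gate genes PECAM1 and CD34 are drawn among the endothelial markers. Numbers in brackets count the measured genes, pink bars are list medians, and there are no error bars because each population had 1 library. PDGFB and PDGFD, at 2.13 and 1.79, lie to the right of most points, A2M and CD93 lie further right than both, the gate gene ENG, which is not drawn, was at 2.25, and the dotted lines mark 1.5-fold.

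Genes around PDGF ligands and receptors were taken from 6 lists with 84 genes in the tables, of which 75 were measured. The lists of related receptors and related ligands hold mainly genes of the stem cell factor, VEGF and other families and not PDGF machinery. Of the calls counted next, KDR, FLT4, KIT and KITLG (higher) and PGF and VEGFB (lower) came from these lists. Between CD105high and CD105neg, 15 (20%, against 5.65% of all measured genes) were called higher and 6 (8%, against 6.88%) lower, with a median log2 fold change of 0.15. Of proteases that process PDGF chains, 2 of 5 measured were called higher and none lower. They were PLAT, tissue plasminogen activator, which releases PDGF-CC, at 4.92, 6.89 and 9.60 FPKM, and PLAU, urokinase, which can release PDGF-DD, at 16.6, 29.4 and 35.2 FPKM. FURIN, the convertase that cleaves the A and B chain precursors, stood at 29.3, 36.7 and 41.6 FPKM. The transcripts of PLAU and PDGFD were thus both higher at higher CD105, and those of PLAT and PDGFC ran in opposite directions. Of co-receptors and extracellular partners, 4 of 7 were called higher, A2M, HSPG2, NRP1 and SPARC, and 1 lower, CSPG4. CSPG4 passed the 1 FPKM level through CD105neg alone. NRP1, a co-receptor for VEGF and PDGF ligands, stood at 38.4, 74.4 and 95.4 FPKM, and SPARC, which binds PDGF-B, at 111, 208 and 193 FPKM.

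Inside the cell, most of the transduction genes did not differ by 1.5-fold. Between CD105high and CD105neg, 5.65% of all measured genes were called higher and 6.88% lower. Of 33 adaptors and effectors, 5 were called higher (GAB1, GRB10, MAP2K1, PIK3CA and YES1) and 1 lower (SRC), with a median of 0.07. GAB1, a docking protein of receptor tyrosine kinases, stood at 7.24, 9.95 and 14.5 FPKM and SRC at 17.9, 15.4 and 10.6 FPKM. Of 21 negative regulators, none was called higher and 2 were called lower, with a median of 0.11. These were PTPRJ, a receptor phosphatase that acts on the PDGF beta receptor, at 2.83, 1.62 and 1.05 FPKM, and SPRY1, a feedback inhibitor of this pathway, at 24.03, 19.1 and 15.6 FPKM. PTPRJ was thus, like PDGFRB, lowest in CD105high, in a downward order that 36.4% of measured genes showed. In the step from CD105neg to CD105low, 7 of the 75 measured genes of the 6 lists (9.33%, against 4.13% of all measured genes) were called higher and none lower (against 2.18%). The related receptor genes FLT4 and KIT were among these 7. From CD105low to CD105high 1 was called higher, A2M, and 1 lower, VEGFB, a related ligand gene. Each was 1.33% of the 75 genes, near the 1.18% and 2.19% of all measured genes.

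The counts over all genes differed between the values as deposited and rescaled ones. Over all measured genes, 641 were called higher and 780 lower in CD105high than in CD105neg. After centring on the median gene the split was 856 and 493, and after scaling each table to a sum of 1000000 it was 1091 and 731, with the median gene shifted by 0.11. That scaling also raises every value, so that the pseudocount of 1 weighs less, and the effects of both cannot be told apart here. For CD105high against CD105low the counts were 134 higher and 248 lower, 209 and 151 after centring, and 279 and 278 after scaling. Among the PDGF genes, these settings ended 2 calls, that of PDGFC across the whole gate and that of PDGFRB between CD105low and CD105high, both after centring. None of the 18 log2 fold changes of the 6 PDGF genes changed sign under these settings or with pseudocounts of 0.1 and 5.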

How the data were processed

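RNA-seq was analysed for 3 libraries, 1 per population, made from 2 ug of total RNA each with an Illumina TruSeq kit that does not mark strand, per the labels' protocols. BWA, Bowtie, RSEM and hg19 are named in the submitters' processing notes, without version, role or order, and the annotation and filters were not given in the sources used here. The values the authors deposited were treated as FPKM, although no header names a unit. In another length-scaled unit, ratios within a library would hold, while the pseudocount and the 1 FPKM level would mean something else.

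Tables were joined on gene identifier. Log2 fold changes used a pseudocount of 1, and calls used 1.5-fold among genes that reached 1 FPKM in any library. Alternatives were pseudocounts of 0.1 and 5, centring on the median of genes that reached 10 FPKM, equal sums of 1000000, a level of 5 FPKM, no filter, and 2-fold. The named genes are the PDGF genes, the gate genes, up to 4 genes of each of 12 lists with the largest size of log2 fold change across the whole gate, and the 3 closest profiles of each PDGF gene that was 1.5-fold apart in a pair. One of these profiles is not reported here. Others (APLNR, CSPG4, DES, RGS5, NOTCH3, MYH11, DCN, HIGD1B, PPBP, TUBB1, MAP2K1, PIK3CA, EGFL7, CLDN5 and PDGFRL) were chosen after their values were seen. The PDGF genes and lists were chosen with earlier results of these data known. Shared sequence was measured on 50-base pieces taken every 40 bases from GENCODE release 29 transcripts and sought on both strands in transcripts of other genes. These references are on a build other than hg19 and were used for names and sequence only. Python 3.11.15, pandas 2.3.3 and numpy 2.4.6 were used, and the functions for calls and profiles were tested on simulated data.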

Additional observations from a re-analysis of the deposited data

How the results depend on the processing

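The direction of each PDGF gene in each pair of libraries was the same under both other pseudocounts, centring and equal sums. A pseudocount of 5 shrinks low values by construction: between CD105high and CD105neg it gave 1.01 for PDGFB, 0.94 for PDGFD and -0.33 for PDGFC, and no PDGF gene reached 1.5-fold in the smaller steps (CD105low against CD105neg: PDGFB 0.44, PDGFD 0.45, PDGFRB -0.49; CD105high against CD105low: PDGFB 0.57, PDGFD 0.49, PDGFRB -0.37). A pseudocount of 0.1 gave PDGFB 3.01 (CD105high against CD105neg) and 1.80 (CD105low against CD105neg), and PDGFA -0.64 (CD105high against CD105neg). Centring gave -0.51 for PDGFC (CD105high against CD105neg) and -0.58 for PDGFRB (CD105high against CD105low), both short of 1.5-fold, and equal sums, which also lessen the weight of the pseudocount, gave 2.87 for PDGFB (CD105high against CD105neg). Counts over all genes moved more. CD105high against CD105neg had 321 higher and 274 lower genes with a pseudocount of 5, 1221 lower with 0.1, 493 lower after centring, 1091 higher with equal sums, and 214 higher and 149 lower at 2-fold. CD105low against CD105neg had 208 higher and 70 lower with 5, 447 lower with 0.1, and 113 higher and 41 lower at 2-fold. CD105high against CD105low had 49 higher and 75 lower with 5, 216 and 498 with 0.1, 209 and 151 after centring, 279 higher with equal sums, and 31 and 43 at 2-fold. No paired analysis was possible because each population has 1 library, and for the same reason no library could be left out. The depth is unknown, so the counting error of low values such as PDGFB in CD105neg (0.726 FPKM) cannot be given.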

Other observations

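Receptor genes related to the PDGF receptors, with extracellular immunoglobulin-like domains and a split kinase domain, were compared in the same way. The 4 measured were KIT and the VEGF receptor genes FLT1, KDR and FLT4. KDR is also in the endothelial marker list. Of the 4, 3 were called higher in CD105high than in CD105neg and none lower, with a median log2 fold change of 0.91. Over all measured genes, 5.65% were called higher and 6.88% lower. KIT, the receptor for stem cell factor, stood at 6.76, 12.2 and 15.6 FPKM in CD105neg, CD105low and CD105high, and its ligand gene KITLG at 5.22, 7.59 and 10.9 FPKM, so that receptor and ligand ran in the same direction, unlike PDGFRB and PDGFB. FLT4, a VEGF receptor gene, stood at 18.9, 36.0 and 41.3 FPKM. Of 5 measured related ligand genes, 1 was called higher, KITLG, and 2 lower, PGF and VEGFB, with a median of -0.34. That median is the value of CSF1, which passed the 1 FPKM level through CD105neg alone. Over all 9 genes of the list with a value the median was -0.12. PGF stood at 13.7, 10.8 and 8.31 FPKM and VEGFB at 9.53, 7.84 and 4.61 FPKM. FLT1, KDR and FLT4 were lowest in CD105neg and highest in CD105high, against the direction of PGF and VEGFB. Opposed directions of ligand and receptor genes were therefore not particular to PDGFB and PDGFRB. Whether the difference between these families exceeds the spread between libraries was not tested. PDGFRL, which encodes a PDGF receptor-like protein, was below 0.1 FPKM in every library.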
